A study of Mus musculus with 2 samples.

Results

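Cells of the mouse colon lamina propria, labelled cd11b+ and profiled one by one for their mRNA, were used to describe the macrophages that carried C1q transcripts and little Ccl3 or Ccl4 mRNA. A cell was counted among them if it had 200 to 6000 detected genes and at most 15% mitochondrial unique molecular identifiers (UMIs, 1 per captured mRNA molecule), if C1qa, C1qb and C1qc together made up at least 0.2% of its UMIs with at least 3 UMIs, if it held no Cd3e, Cd3d or Cd79a UMI, and if Ccl3 and Ccl4 together stayed below 0.5% of its UMIs. The rule retained 477 of 5111 filtered cells, of which 376 came from the wild-type (WT) library and 101 from the knockout (KO) library. The levels of these genes chose the cells and are therefore given only as a description.

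The WT library was labelled with that genotype alone, and the KO library came from mice whose label reads LncRNA17Rik knockout, a long non-coding RNA that the study calls lncLy6c. Per the study's methods the KO allele was made with CRISPR-Cas9 on a C57BL/6J background, with cuts before exon 1 and after exon 2, so the loss was not confined to a cell type. Both libraries were made from pooled male mice of 8 weeks, with no treatment in the labels, from Percoll-enriched, sorted cells cleared of 7-AAD-positive dead cells. With 1 pooled library per genotype there was no replicate and no test between genotypes, so that every interval below covers counting error only and differences between mice, sorts or library preparations cannot be told apart from genotype.

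The libraries held 3185 WT and 3020 KO barcodes with 22191774 and 23384895 UMIs, and filtering left 2597 and 2514 cells. They shared 1 barcode, which was in neither set of C1q macrophages. Despite the cd11b+ label, 180 WT and 72 KO cells carried at least 3 UMIs of Cd3e and Cd3d and are called T cells below, and 302 and 86 cells carried at least 3 Cd79a UMIs and no Cd3e or Cd3d UMI. Both quantitative PCR primers of the study for lncLy6c matched 1 transcript only, that of 1700016P04Rik (ENSMUSG00000101894), a long intergenic non-coding RNA gene. It had 0 UMIs in the C1q macrophages of both libraries, which allows up to 1.28 counts per 1000000 UMIs (CPM) in WT and 3.12 CPM in KO, and the genotypes were left without a check by the targeted gene.

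C1q is the first component of the classical complement pathway and is assembled from chains encoded by C1qa, C1qb and C1qc, which tissue macrophages transcribe abundantly. In the colon, monocytes that enter the lamina propria lose Ly6C, gain MHC class II, Cx3cr1 and scavenger receptors, and become resident macrophages that clear dying cells and take up bacteria while releasing little inflammatory cytokine. Ccl3 and Ccl4 encode chemokines that macrophages release on activation. The genes C1qb, C1qc and C1qa lie side by side on the minus strand of chromosome 4 (GRCm38), from 136880129, the first base of C1qb, to 136898803, the last base of C1qa.

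Within the rule, the C1q macrophages covered a wide range. Their C1q share ran from 0.206% to 2.58% of UMIs in WT with a median of 0.578%, and from 0.202% to 2.77% in KO with a median of 0.492%. The median C1q UMI number per cell was 24.5 in WT and 38 in KO. Just inside the threshold, 28 WT and 10 KO cells had a C1q share from 0.2 to 0.25%, and just outside it 24 WT and 15 KO cells had 0.15 to 0.2%. A single C1q UMI did not mark these cells, since 11.1% of WT and 13.9% of KO T cells also held at least 1, at median depths of 5531 and 6785.5 UMIs.

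Ccl3 and Ccl4 together made up 0.0785% of the pooled UMIs in WT and 0.168% in KO. No UMI of either gene was found in 144 WT cells (38.3%) and 20 KO cells (19.8%). Just inside this threshold, 41 WT and 32 KO cells lay between 0.25 and 0.5%, and just outside it 15 WT and 30 KO cells lay between 0.5 and 1%. The lowest share of an excluded C1q cell was 0.509% in WT and 0.505% in KO. Of the retained cells, a larger part of the KO than of the WT cells lay just below this threshold.

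**Figure D1:**
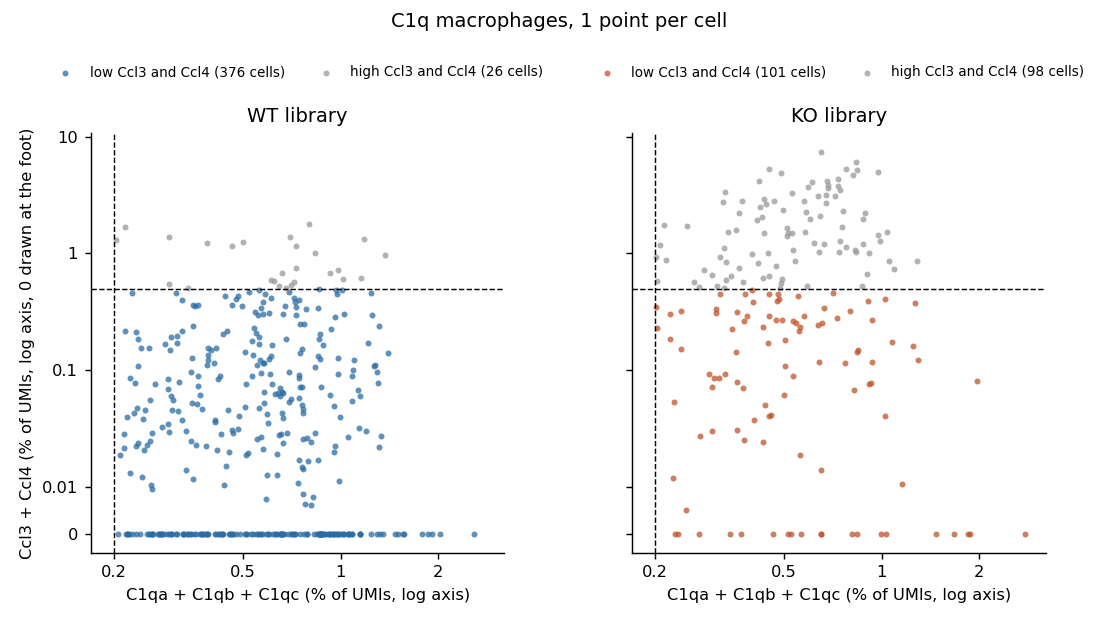
Each point is 1 cell that met the C1q and lymphocyte conditions, placed by its C1q share (x axis, % of UMIs) and its Ccl3 and Ccl4 share (y axis, % of UMIs, cells with 0 drawn at the foot), with dashed lines at the thresholds. Most WT points lie below the horizontal line (376 of 402 cells), whereas the KO points are spread over both sides (101 of 199).

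C1q macrophages with low Ccl3 and Ccl4 were 14.5% of WT cells (exact 95% interval 13.1 to 15.9%) and 4.02% of KO cells (3.28 to 4.86%). The log2 ratio of the shares was -1.85 (-2.18 to -1.53). Because the shares are of sequenced cells, fewer macrophages and more of other cells cannot be told apart. Without the condition on Ccl3 and Ccl4, C1q cells made up 15.5% (14.1 to 16.9%) in WT and 7.92% (6.89 to 9.04%) in KO, and the log2 ratio was -0.97. C1q cells with high Ccl3 and Ccl4 were 26 in WT and 98 in KO, so that 93.5% of the WT and 50.8% of the KO C1q cells were of the low kind.

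The KO cells were the deeper ones. Their median was 8343 UMIs and 2413 genes per cell, against 5194.5 UMIs and 1892.5 genes in WT, and they held 962848 UMIs in all against 2338753. The 5 deepest cells held 15.6% of the KO and 5.33% of the WT UMIs, so that single cells weigh more in the KO sums. The mitochondrial share had a median of 3.77% in WT and 4.34% in KO. Levels below are CPM of the summed UMIs, which sets the libraries to 1 depth, and shares of cells were also taken after thinning each cell to 2000 UMIs, leaving out the 89 WT and 14 KO cells below that depth. The part of depth in the differences was not tested.

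The markers that the rule did not use were present in both libraries. Apoe, the apolipoprotein that macrophages secrete with cholesterol, was at 6918 CPM (6812 to 7025) in WT against 8453 CPM (8270 to 8639) in KO. Ms4a7, a membrane-spanning protein of macrophages, was at 337 CPM in WT against 284 CPM in KO. Mrc1, the mannose receptor, was at 254 CPM in WT against 470 CPM in KO. Cx3cr1, the fractalkine receptor, was at 358 CPM in WT against 315 CPM in KO. Of these 4 markers the KO to WT difference was largest for Mrc1 (log2 ratio 0.89, interval 0.71 to 1.07), and none passed 2-fold. With a C1q share of at least 0.5% Mrc1 did so, at 1.05. All 4 were detected together in 26.6% of WT and 37.6% of KO cells, against 0.957% and 1.17% of cells chosen as monocytes.

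The label thus rests on genes outside the rule in the summed cells, less so cell by cell. At least 1 of the 4 markers was missing in most cells, and 8 WT and 3 KO cells had none of them. Monocytes here are cells with at least 3 UMIs and 0.05% of UMIs of Ly6c2, F10, Chil3 and Fn1, a C1q share below the rule and no Cd3e, Cd3d or Cd79a UMI (418 WT and 428 KO cells). T cells should lack the markers. In T cells Apoe was at 32.5 CPM in WT against 1592 CPM in KO, and all 4 markers were found in 4 of the 72 KO T cells and in none of the 180 WT T cells.

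Against all other filtered cells, 252 of 8857 genes (2.85%) were over 2-fold higher in the C1q macrophages in both libraries and 609 (6.88%) were over 2-fold lower. A gene counted here had at least 50 UMIs in the cells compared. By the smaller of the 2 log2 ratios the list was led by Pf4, Apoe, Stab1, Npl and Ms4a7. Of 11 resident macrophage markers above the minimum, 10 were past 2-fold. The scavenger receptor gene Stab1 was at 129 CPM in WT against 181 CPM in KO. Selenop, which encodes a secreted selenium carrier, was at 900 CPM and 826 CPM. P2ry12, the ADP receptor known from microglia, was at 26.5 CPM and 31.2 CPM, and Fcrls, which microglia also carry, was at 34.2 CPM and 85.2 CPM. Stab1, Selenop and P2ry12 stayed within 2-fold between the libraries, whereas Fcrls, which fell just short in 1 or more alternatives, and Pf4 were over 2-fold higher in KO. Since the cells were chosen on these same counts, the list describes what they carried.

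Some receptors of long-lived resident macrophages elsewhere were low. Timd4 had 15 WT and 3 KO UMIs, Lyve1 had 5 and 17, and Cd163 had 34 and 8. Vsig4 had 0 UMIs in both libraries, which allows up to 1.28 CPM in WT against 3.12 CPM in KO. Cd4, which marks a resident subset in the gut, was at 24.8 CPM in WT against 18.7 CPM in KO.

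**Figure D2:**
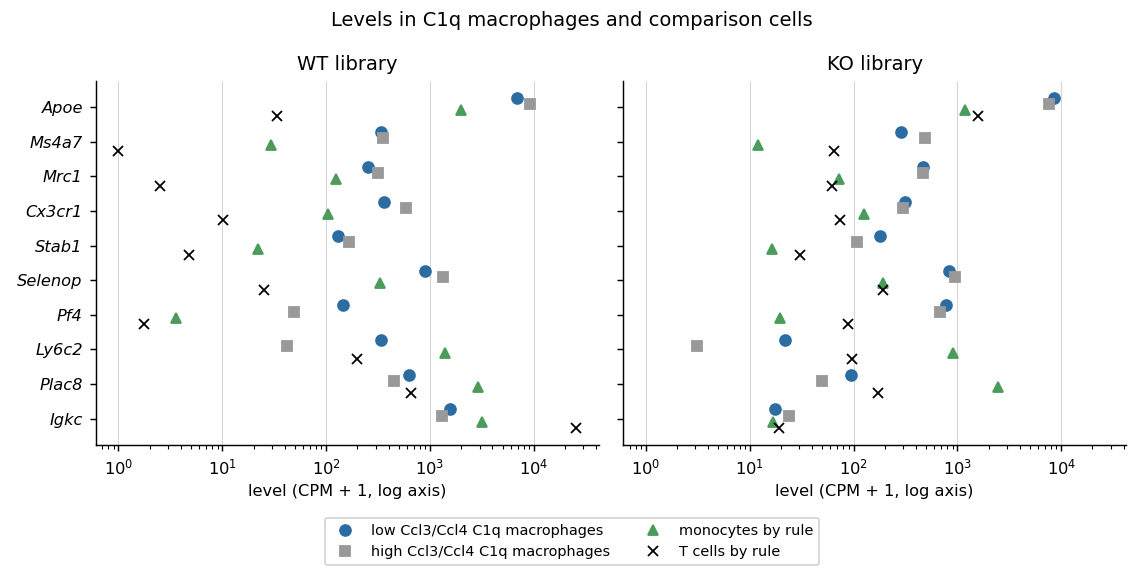
Levels (x axis, CPM + 1, log scale) of 10 genes in C1q macrophages with low Ccl3 and Ccl4 (blue circles), C1q macrophages with high Ccl3 and Ccl4 (grey squares), monocytes (green triangles) and T cells (crosses), for each library. Apoe, Ms4a7, Mrc1, Cx3cr1, Stab1 and Selenop lie to the right of the monocytes in both libraries, Ly6c2 and Plac8 to their left, and Igkc lies furthest right in WT T cells, at 25571 CPM. Ly6c2 was among the genes that chose the monocytes.

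Compared with monocytes, 95 of 6594 genes (1.44%) were over 2-fold higher in C1q macrophages in both libraries and 219 (3.32%) were over 2-fold lower. The monocyte rule includes Fn1, and 66 WT and 34 KO of its cells held a UMI of the fibroblast genes Dcn, Col1a1, Col3a1 or Pdgfra, and fibroblast genes such as Dcn, Col5a2 and Pdgfra were among the 10 lowest. Without those cells, a comparison chosen after the data had been seen, 118 of 6168 genes (1.91%) were higher and 94 (1.52%) were lower. Pf4 was then 5.16 higher on the log2 scale in WT and 5.20 in KO, and Ms4a7 3.45 and 4.64. Chil3 and Hp, genes of circulating monocytes and neutrophils, led the lower side, but Chil3 was among the genes that chose the monocytes. Chil3 was at 27.4 CPM in WT against 39.5 CPM in KO C1q macrophages, against 337 CPM and 460 CPM in all monocytes by rule. Of 13 monocyte genes above the minimum 0 were higher and 8 were lower, but the rule for the monocytes used 4 of the 15 genes on this list.

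Between the genotypes, 5962 genes had at least 50 UMIs over both libraries in the C1q macrophages and were found in at least 10 cells of the library with more. Of these, 171 (2.87%) were over 2-fold higher in KO and 401 (6.73%) were over 2-fold lower, 9.59% in all. The median log2 ratio of these genes was -0.16, so that log2 ratios between this value and 0 would become positive if all genes were centred. The genes of the rule and mitochondrial genes were left out. These counts moved with the setting by more than 1.5 times, from 73 to 1392 higher and from 135 to 1556 lower genes, mainly with the minimum number of UMIs.

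**Figure D3:**
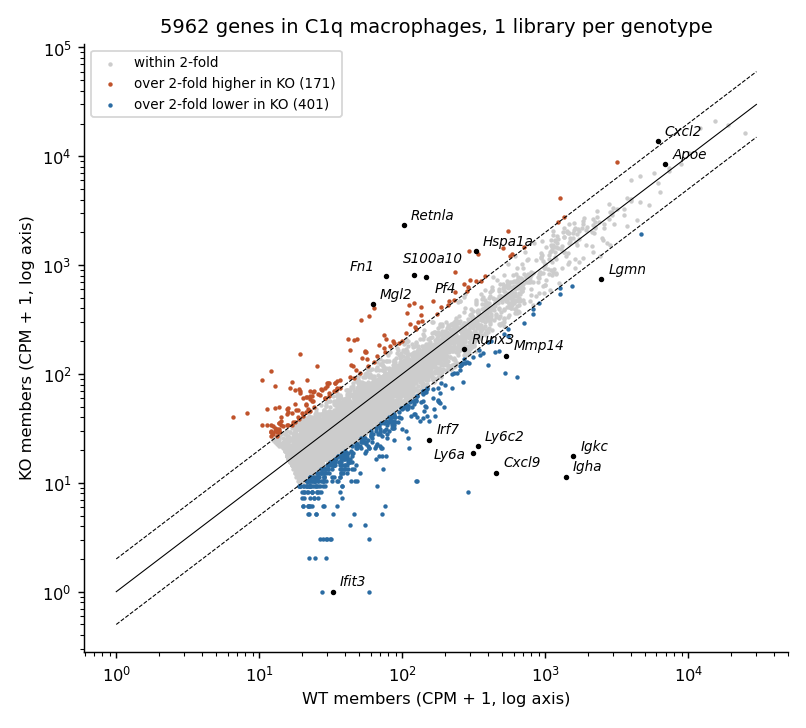
Each point is 1 of 5962 genes, placed by its level in WT (x axis) and in KO (y axis) C1q macrophages (CPM + 1, log scales), with the line of equality and dashed lines at 2-fold. Orange points are over 2-fold higher in KO (171 with the labelled black ones) and blue points over 2-fold lower (401); Igha, Igkc, Spon1 and Cxcl9 lie furthest below the line and Retnla furthest above it.

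Runx3 (chromosome 4, 135120652 to 135177990, plus strand, GRCm38), the transcription factor that the study follows in resident macrophages, was lower in the KO cells but stayed within 2-fold. Its level was 271 CPM (250 to 293) in WT, with 633 UMIs, against 167 CPM (142 to 195) in KO, with 161 UMIs (log2 ratio -0.69, interval -0.95 to -0.44). A Runx3 UMI was found in 54.0% of WT and 46.5% of KO cells, and after thinning in 33.4% (28.0 to 39.2%) and 19.5% (11.8 to 29.4%). T cells, which use Runx3 themselves, had thinned shares of 36.1% and 23.6%, and monocytes had 30.9% and 17.3%. Only thinning, of 19 alternatives, moved the log2 ratio beyond its counting interval, to -1.22. The ratio had the same sign in monocytes, at -1.08, and in C1q cells with high Ccl3 and Ccl4, at -0.70, so the lower level was not particular to the cells described here.

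Of 25 macrophage transcription factors above the minimum, 0 were over 2-fold higher in KO and 2 were lower, against 2.87% and 6.73% of all genes, with a median log2 ratio of -0.12 against -0.16 for all genes. Nr1h3, which encodes the oxysterol receptor LXR alpha, was at 72.3 CPM in WT against 12.5 CPM in KO (log2 ratio -2.44, interval -3.52 to -1.69). Its 12 KO UMIs came from 5 cells. Id3, an inhibitor of basic helix-loop-helix factors, was at 86.8 CPM and 36.4 CPM (log2 ratio -1.23, interval -1.82 to -0.73), but -0.36 in thinned cells and -0.72 without the condition on Ccl3 and Ccl4. Runx1, of the same family as Runx3, was at 303 CPM and 353 CPM.

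Nr4a1 and Zfp36, by which the study names the resident macrophages that RUNX3 drives, were also within 2-fold as summed over all members. The study reports their reduction in mice that lack RUNX3 in myeloid cells, a different knockout from the one here. Nr4a1, an orphan nuclear receptor induced early after stimulation, was at 306 CPM in WT against 174 CPM in KO (log2 ratio -0.81, interval -1.06 to -0.56), and passed 2-fold at -1.03 as a mean over cells and at -1.02 without the condition on Ccl3 and Ccl4. Zfp36, whose product triggers decay of cytokine mRNAs, was at 1618 CPM and 1128 CPM (log2 ratio -0.52, interval -0.62 to -0.42). Among 15 ERK targets and feedback genes 1 was higher (Egr2) and 2 were lower, the phosphatase genes Dusp2, at 398 CPM and 194 CPM, and Dusp5, at 516 CPM and 234 CPM, with a median of -0.32 against -0.16 for all genes, of which 9.59% were past 2-fold. Of 7 MAPK-related genes named by the study Hspa1a was higher and Daxx was lower. Hspa1a is also counted below among dissociation stress genes, and most of its KO UMIs came from few cells. Egr2, Daxx and both phosphatase genes fell short of 2-fold under at least 1 alternative.

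Genes induced by interferon had the lowest median of the lists of macrophage functions. Type I interferons signal to a response element in the promoters of antiviral genes, and interferon gamma acts through a different promoter element. Of 16 type I interferon-stimulated genes above the minimum, 11 were over 2-fold lower in KO and 1 was higher, against 6.73% and 2.87% of all genes, with a median log2 ratio of -1.36 against -0.16 for all genes. Irf7, the factor that amplifies interferon production, was at 154 CPM and 23.9 CPM (log2 ratio -2.63, interval -3.36 to -2.08). It stayed past 2-fold under every alternative run.

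The Ifit genes, which encode RNA-binding antiviral proteins, and their neighbours in the list were sparse. Ifit3 had 74 UMIs in WT and 0 in KO, which with a floor of 3 KO UMIs makes it at least 10.2-fold lower. Ifit1 was at 38.5 CPM and 12.5 CPM, and Ifit2 at 36.8 CPM and 8.31 CPM. Mx1 had 55 WT UMIs and 1 KO UMI (log2 ratio -3.59, interval -9.83 to -1.96). Few cells carried these genes, since 70.0% of the WT UMIs of Ifit1 and 52.7% of those of Ifit3 came from 5 cells. Setting Ifit3 to its bound left the median of the list at -1.36.

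Not every interferon-induced gene was lower. Oasl1, an antiviral protein that also restrains translation of Irf7, was at 73.5 CPM in WT against 225 CPM in KO (log2 ratio 1.60, interval 1.32 to 1.91). Isg15, a ubiquitin-like modifier, was at 183 CPM and 287 CPM, and the chemokine gene Cxcl10 was at 325 CPM and 721 CPM. In the KO cells 48.8% of the Cxcl10 UMIs came from 5 cells. Oasl1, at 0.94, and Cxcl10, at 0.75, fell short of 2-fold under an alternative. The list therefore held genes on both sides, with most on the lower side.

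The division by Ccl3 and Ccl4 mattered for this group. In C1q cells with high Ccl3 and Ccl4, Ifit1 was at 27.4 CPM in WT against 152 CPM in KO, Ifit2 at 27.4 CPM and 131 CPM, and Rsad2 at 260 CPM and 548 CPM, the opposite order to the cells with low Ccl3 and Ccl4. When the condition was dropped, 5 of 17 genes were higher and 7 were lower, with a median of -0.65. Over the 19 alternatives run for the list the median lay between -1.72 and -0.33, and the value nearest 0 came from thinned cells, where 9 genes were left and 4 were lower.

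Genes that interferon gamma induces in macrophages pointed the same way. They were chosen by symbol after the data had been seen and give no independent support. Of 10 guanylate-binding and immunity-related GTPase genes above the minimum, 7 were over 2-fold lower in KO and 0 were higher. Over all genes 6.73% were lower and 2.87% higher, and the medians were -1.31 for the GTPases and -0.16 for all genes. Gbp2 was at 169.7 CPM in WT against 40.5 CPM in KO, and Gbp4 was at 45.3 CPM and 4.15 CPM. Both were lower in KO outside these cells as well. In C1q cells with high Ccl3 and Ccl4 Gbp2 was at 212 CPM and 38.7 CPM, and Gbp4 at 68.5 CPM and 54.4 CPM. In monocytes Gbp2 was at 204 CPM and 86.3 CPM, and Gbp4 at 33.6 CPM and 4.95 CPM. Their lower level was thus not particular to the cells described here. Gbp9 went the other way in the high cells, at 6.85 CPM and 8.38 CPM. Cxcl9, a chemokine that attracts T cells and is induced by interferon gamma, was at 450 CPM (423 to 478) in WT against 11.4 CPM (5.70 to 20.4) in KO (log2 ratio -5.18, interval -6.31 to -4.45). The Cxcl9 UMIs numbered 1052 in WT, 47.6% of them in 5 cells, and 11 in KO, all in 5 cells. T cells held 0.755 CPM and 0 CPM of Cxcl9. In monocytes the order was the same with a smaller gap, at 250 CPM and 106 CPM.

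To show what these promoters hold, the window from 250 bases before to 50 bases after the RefSeq start (GRCm38.p6) is printed for 4 of these genes, Ifit3 and Cxcl9 as the genes with the lowest KO to WT ratios of their groups, Irf7 as another lower gene and Oasl1 as the higher one. The letters GAAANNGAA, a core of the interferon-stimulated response element, were searched on both strands, and matches are in capitals. The Ifit3 window is chr19:34583279-34583578 on the plus strand, with 3 matches at -155, -121 and -102 relative to the start. The Cxcl9 window is chr5:92328030-92328329 on the minus strand, with 1 match at -175. The Irf7 window is chr7:141266375-141266674 on the minus strand and holds no match to these letters. The Oasl1 window is chr5:114922990-114923289 on the plus strand and likewise holds none.
Ifit3: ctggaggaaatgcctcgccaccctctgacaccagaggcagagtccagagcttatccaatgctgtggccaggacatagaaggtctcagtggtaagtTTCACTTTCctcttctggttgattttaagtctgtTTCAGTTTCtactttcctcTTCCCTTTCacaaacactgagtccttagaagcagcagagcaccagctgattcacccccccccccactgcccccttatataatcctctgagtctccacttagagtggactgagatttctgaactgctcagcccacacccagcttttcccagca
Cxcl9: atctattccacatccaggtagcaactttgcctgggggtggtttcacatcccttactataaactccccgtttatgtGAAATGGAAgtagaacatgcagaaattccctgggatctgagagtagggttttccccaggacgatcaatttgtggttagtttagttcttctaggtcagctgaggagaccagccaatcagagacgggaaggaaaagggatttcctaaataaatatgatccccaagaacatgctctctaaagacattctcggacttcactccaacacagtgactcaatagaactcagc
Irf7: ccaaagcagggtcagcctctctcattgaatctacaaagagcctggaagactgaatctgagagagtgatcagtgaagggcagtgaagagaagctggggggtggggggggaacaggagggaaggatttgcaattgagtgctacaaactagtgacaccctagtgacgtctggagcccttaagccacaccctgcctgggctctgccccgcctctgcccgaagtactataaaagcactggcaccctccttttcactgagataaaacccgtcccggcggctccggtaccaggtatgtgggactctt
Oasl1: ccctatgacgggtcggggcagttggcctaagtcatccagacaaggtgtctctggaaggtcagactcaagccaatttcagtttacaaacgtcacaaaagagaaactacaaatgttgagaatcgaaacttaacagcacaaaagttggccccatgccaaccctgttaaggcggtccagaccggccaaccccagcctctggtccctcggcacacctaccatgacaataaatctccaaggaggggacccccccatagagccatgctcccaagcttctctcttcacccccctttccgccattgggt

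The letters were present in 8.56% of 32851 promoter windows in the table and in 9.86% of 4786 genes counted between the genotypes that had a window. Of 14 list genes with a window 9 held it (64.3%). Among them were Isg15, which was higher in KO but within 2-fold (log2 ratio 0.64), and Ifit1, Ifit3, Rsad2, Ddx58 and Stat2, which were over 2-fold lower. Ifi205, at -0.33, and Ifih1, at 0.50, were within 2-fold as well, and Ifi44 was below the minimum. Without the condition on Ccl3 and Ccl4 Isg15 was at 1.29 and Ifih1 at 1.48. Of the lower genes all but Ifit3 fell short of 2-fold or changed sign under an alternative. The gamma-activated letters TTCNNNGAA were present in 1 of the 14 windows, that of Ifit2, and in 8.30% of all windows. A match is a description of the letters and not evidence of binding.

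The Ly6 genes stood beside this group. Ly6c2 encodes the Ly6C antigen of inflammatory monocytes, and Ly6a encodes Sca-1, an interferon-inducible surface protein. They lie with Ly6i on the minus strand of chromosome 15 between 74979534 and 75111970 (GRCm38). Ly6c2 was at 337 CPM (314 to 361) in WT against 20.8 CPM (12.7 to 32.1) in KO (log2 ratio -3.96, interval -4.74 to -3.38). Ly6a was at 313 CPM and 17.7 CPM (log2 ratio -4.07, interval -4.93 to -3.46). Ly6i was at 126 CPM and 9.35 CPM, and Ly6e at 1258 CPM and 543 CPM. All 4 Ly6 genes above the minimum were over 2-fold lower in KO, against 6.73% of all genes. Like the GTPases, the family was grouped after the data had been seen. These genes share sequence, so that reads of near-identical copies could be divided between them.

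Ly6c2 mRNA was also found in cells other than macrophages. After thinning, 19.2% (14.8 to 24.2%) of WT and 2.30% (0.280 to 8.06%) of KO C1q macrophages held a Ly6c2 UMI, whereas T cells held one in 8.89% and 8.33%. The KO share did not exceed that of T cells, which are no reference free of Ly6c2. In monocytes Ly6c2 was at 1409 CPM and 910 CPM. Ly6a was lower in KO in monocytes as well, at 418 CPM and 46.0 CPM, and in T cells, at 158 CPM and 67.0 CPM.

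The WT cells with a Ly6c2 UMI differed from the other WT cells in more than Ly6c2. They numbered 94 of 376, with a median depth of 7123 UMIs against 4424, and had a median C1q share of 0.430% against 0.639%. Plac8, a gene of monocytes and neutrophils, was at 1309 CPM with and 304 CPM without a Ly6c2 UMI, and Ly6a was at 580 CPM and 185 CPM. Mrc1 was at 107 CPM with and 324 CPM without, Pf4 at 43.7 CPM and 194 CPM, and Cx3cr1 at 218 CPM and 424 CPM. In KO only 6 of 101 cells held a Ly6c2 UMI.

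The cells with a Ly6c2 UMI were also left out in both libraries, an alternative chosen after the data had been seen. Of 13 interferon-stimulated genes above the minimum 7 were then lower and 2 higher, with a median of -1.28, against 11 and 1 of 16 and -1.36 with these cells. Irf7 was at -2.81, Cxcl9 at -4.89 and Ly6a at -3.19 on the log2 scale.

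Chemokine genes had the highest median of the lists fixed for this comparison. Of 16 chemokine genes above the minimum other than Ccl3 and Ccl4, 10 were over 2-fold higher in KO and 2 were lower, against 2.87% and 6.73% of all genes, with a median log2 ratio of 1.16. Cxcl2, a neutrophil attractant, was at 6101 CPM (6001 to 6202) in WT against 13784 CPM (13551 to 14021) in KO (log2 ratio 1.18, interval 1.14 to 1.21). The related Cxcl1 was at 502 CPM and 1446 CPM (log2 ratio 1.52, interval 1.41 to 1.64). Ccl2, which recruits monocytes through Ccr2, was at 234 CPM and 864 CPM (log2 ratio 1.88, interval 1.73 to 2.04). Cxcl2, Cxcl1, Ccl2, Ccl24 and Pf4 stayed past 2-fold under every alternative run for them. The other 5 did not, with the lowest log2 ratio at 0.39 for Ccl6, 0.79 for Ccl7, 0.81 for Ccl9, 0.75 for Cxcl10 and -0.23 for Cxcl3.

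The Cxcl2 difference was spread over the cells. Its median over cells was 3178 CPM in WT against 7726 CPM in KO. Pf4, platelet factor 4, which a subset of macrophages also transcribes, was at 145 CPM and 778 CPM (log2 ratio 2.41, interval 2.23 to 2.61). The lower chemokines were Cxcl9, described above, and Ccl8, at 74.4 CPM in WT against 5.19 CPM in KO. The same direction was seen outside these cells, since Cxcl2 was at 4488 CPM and 12022 CPM in monocytes. In KO T cells Cxcl2 was at 1782 CPM, against 79.3 CPM in WT T cells. Over 19 alternatives 5 to 11 chemokine genes were higher and 1 to 3 were lower, with medians from 0.80 to 1.36.

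Of 9 inflammatory cytokine genes above the minimum, 3 were over 2-fold higher in KO and 0 were lower, against 2.87% and 6.73% of all genes, with a median of 0.15. Il1a was at 50.9 CPM in WT against 311 CPM in KO (log2 ratio 2.59, interval 2.30 to 2.93). Il6 was at 24.4 CPM and 117 CPM, and Il23a at 18.4 CPM and 152 CPM. With a C1q share of at least 0.5% the log2 ratio of Il6 went from 2.22 to 0.15. Of the KO Il23a UMIs, 96.6% came from 5 cells. Il1b, whose product is released after cleavage by the inflammasome, was at 3015 CPM and 2364 CPM, and Tnf was at 275 CPM and 543 CPM, both within 2-fold. The log2 ratio of Tnf was 0.98 and ran from 0.47 to 2.01 over the alternatives, the highest without the condition on Ccl3 and Ccl4. Il10, the regulatory cytokine of gut macrophages, was at 589 CPM (558 to 621) and 568 CPM (521 to 618). None of 11 genes of the IL-10 and TGF-beta axis and none of 11 toll-like receptor genes and adaptors passed 2-fold. Under an alternative Tlr13 reached -2.04, Tlr6 -1.31 and Ticam1 -1.12.

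**Figure D4:**
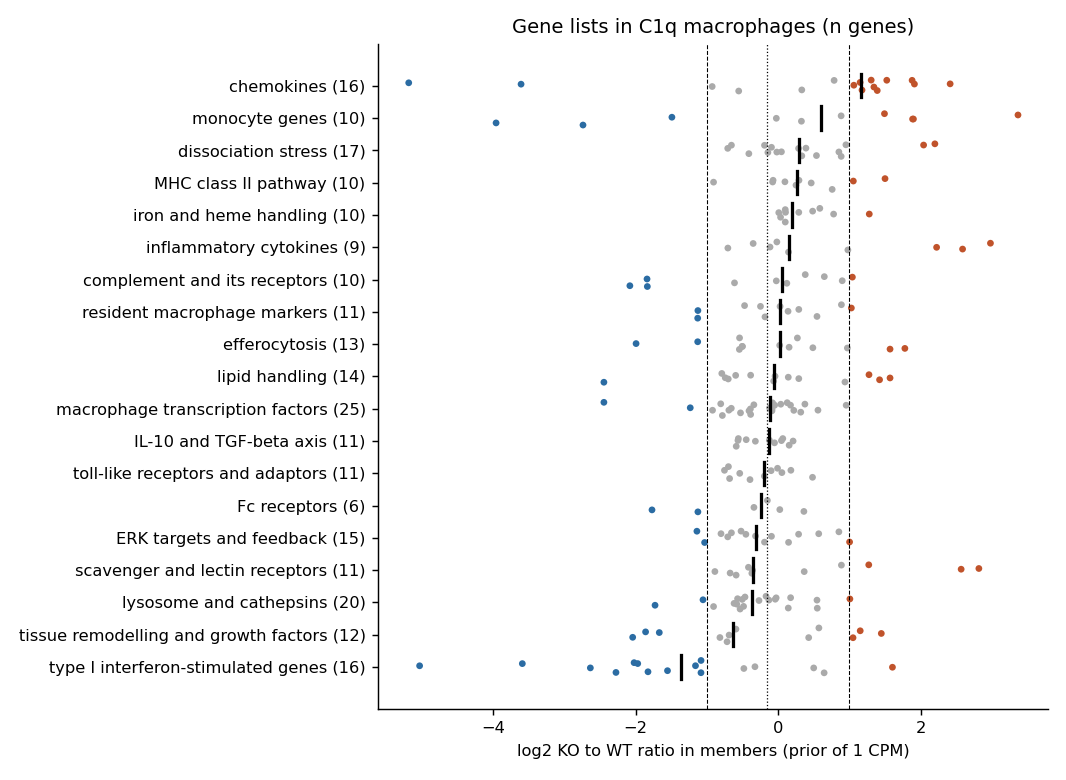
Each point is 1 gene of a list, placed by its log2 KO to WT ratio in C1q macrophages (x axis), with the list median as a black bar, dashed lines at 2-fold and a dotted line at the median of all genes (-0.16). Chemokines lie furthest right with a median of 1.16 and type I interferon-stimulated genes furthest left with -1.36, and most other lists straddle the dotted line.

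MHC class II genes present peptides to CD4 T cells. Of 10 genes of this pathway 2 were over 2-fold higher in KO and 0 were lower, against 2.87% and 6.73% of all genes. Their median log2 ratio was 0.27 against -0.16 for all genes. The summed share of the list had a median over cells of 3.53% of UMIs in WT and 4.72% in KO. H2-Aa was at 8886 CPM and 8421 CPM, and the invariant chain gene Cd74 at 15326 CPM and 21129 CPM. The 2 higher genes were the low-level H2-DMb2, at 32.5 CPM and 68.5 CPM, and H2-Ob, at 11.1 CPM and 33.2 CPM. Of the 11 resident markers Cd81 was higher, at 209 CPM and 427 CPM, and the Fc receptor gene Fcgr1 (CD64), at 124 CPM and 56.1 CPM, and the efferocytosis receptor gene Mertk, at 46.6 CPM and 20.8 CPM, were lower. The M-CSF receptor gene Csf1r was at 636 CPM and 648 CPM and Adgre1 (F4/80) at 234 CPM and 258 CPM. The median of this list was 0.03, and 9.59% of all genes were past 2-fold. H2-DMb2, H2-Ob, Cd81, Fcgr1 and Mertk each fell short of 2-fold under at least 1 alternative.

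Of 20 lysosomal genes Cst3 was over 2-fold higher and Lgmn and Grn were lower, against 9.59% of all genes past 2-fold, with a median of -0.37 against -0.16 for all genes. Cst3, at 0.46, and Grn, at -0.90, fell short of 2-fold under an alternative. The summed share of this list had a median over cells of 2.17% of UMIs in WT and 1.51% in KO. Lgmn, which encodes the protease legumain, was at 2471 CPM (2407 to 2535) in WT against 746 CPM (692 to 802) in KO (log2 ratio -1.73, interval -1.84 to -1.62). Grn, which encodes progranulin, was at 814 CPM and 392 CPM. Cst3, the secreted inhibitor cystatin C, was at 1233 CPM and 2477 CPM, with 47.5% of its KO UMIs in 5 cells.

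The lists that follow are short, and their counts stand beside the 9.59% of all genes past 2-fold. Among 6 Fc receptor genes Fcgr1 and Fcgr4 were lower, the latter at 183 CPM and 53.0 CPM. Among 13 efferocytosis genes Cd36, at 54.3 CPM and 163 CPM, and Gas6, at 18.4 CPM and 65.4 CPM, were higher and Mertk and Cd300lf were lower. Among 14 lipid-handling genes Cd36, Lpl and Trem2 were higher and Nr1h3 was lower. Of 10 iron and heme genes Hmox1, heme oxygenase 1, was higher, at 298 CPM and 723 CPM. Of 10 complement genes C5ar1 was higher and C3, C4b and Cfb were lower, with C3 at 148 CPM and 40.5 CPM and Cfb at 109 CPM and 24.9 CPM. Under at least 1 alternative Fcgr1, Mertk, Lpl, Trem2, Hmox1, C5ar1 and C4b fell short of 2-fold or, for Lpl, changed sign.

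Of 12 tissue remodelling genes 3 were over 2-fold higher (Ecm1, Igf1 and Mmp12) and 3 were lower (Mmp13, Mmp14 and Vegfa), against 2.87% and 6.73% of all genes, with a median of -0.64 against -0.16. The 3 higher genes each fell short of 2-fold under an alternative, Ecm1 at 0.31, Igf1 at 0.76 and Mmp12 at -0.26. Mmp14, a membrane-bound matrix protease, was at 534 CPM (505 to 565) in WT against 146 CPM (123 to 173) in KO (log2 ratio -1.86, interval -2.13 to -1.61). Vegfa, the vascular growth factor, was at 153 CPM and 36.4 CPM. Mmp13 was at 177 CPM and 55.0 CPM here, and at 95.9 CPM and 1167 CPM in C1q cells with high Ccl3 and Ccl4, so that its direction depended on the Ccl condition.

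Retnla, which encodes a secreted protein induced by IL-4, was at 101 CPM in WT against 2327 CPM in KO (log2 ratio 4.51, interval 4.33 to 4.72), the highest of all genes counted. It came from few cells, 12 of 376 in WT and 21 of 101 in KO, and 74.4% of the KO UMIs lay in 5 cells. Mgl2, a galactose-type lectin of macrophages and dendritic cells, was at 61.1 CPM and 436 CPM (log2 ratio 2.81, interval 2.56 to 3.12), with 37.1% of the KO UMIs in 5 cells. Fn1, fibronectin, was at 76.1 CPM and 792 CPM (log2 ratio 3.36, interval 3.14 to 3.62). S100a10 was at 119 CPM and 804 CPM, and Anxa1, an annexin that limits inflammation, was at 40.6 CPM and 209 CPM.

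The KO cells with a Retnla UMI differed from the other KO cells in their markers. Fn1 was at 2166 CPM in them and at 399 CPM in the other KO cells, and Lpl, lipoprotein lipase, at 649 CPM and 50.8 CPM. Apoe was at 1092 CPM with and 10560 CPM without a Retnla UMI, Ms4a7 at 42.0 CPM and 353 CPM, and Cx3cr1 at 70.0 CPM and 385 CPM. Without the Retnla cells in either library, an alternative chosen after the data had been seen, Fn1 stayed higher in KO at 2.52 on the log2 scale, Mgl2 at 2.67 and S100a10 at 2.34, and Lpl changed sign to -0.33.

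Of 10 monocyte genes above the minimum, 4 were over 2-fold higher in KO (Fn1, F13a1, S100a4 and S100a6) and 3 were lower (Ly6c2, Plac8 and Hp). Over all genes 2.87% were higher and 6.73% lower, and the median of the list was 0.60 against -0.16 for all genes. Hp fell short of 2-fold under an alternative, at -0.90. The summed share of the list had a median over cells of 0.182% of UMIs in WT and 0.365% in KO. S100a4 was at 339 CPM and 1254 CPM, and S100a6 at 548 CPM and 2044 CPM. Plac8 was at 629 CPM and 93.5 CPM (log2 ratio -2.74, interval -3.07 to -2.44). Ccr2, the receptor by which monocytes leave the blood, was at 550 CPM (520 to 581) and 540 CPM (495 to 589). After thinning, a Ccr2 UMI was found in 57.8% of WT C1q macrophages and in 68.3% of WT monocytes.

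Of 17 dissociation stress genes the heat-shock genes Hspa1a, at 325 CPM and 1341 CPM, and Hspa1b, at 293 CPM and 1349 CPM, were over 2-fold higher in KO, with 68.6% and 60.4% of the KO UMIs in 5 cells, and 0 were lower, against 9.59% of all genes past 2-fold. The 2 lowest KO to WT ratios of all genes counted belonged to immunoglobulin genes. Igha was at 1385 CPM in WT against 10.4 CPM in KO, and Igkc at 1572 CPM and 16.6 CPM. T cells, which do not transcribe them, had 24220 CPM and 16.3 CPM of Igha. Spon1, which encodes the matrix protein F-spondin, had the next lowest ratio, with 135 UMIs in WT and 0 in KO, which with a floor of 3 KO UMIs makes it at least 18.5-fold lower. The 11 B and plasma cell markers summed to 3443 CPM in WT against 154 CPM in KO, with 3 of them at 0 UMIs in KO.

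The other lineage lists were smaller. T and NK cell markers summed to 71.0 CPM in WT against 102 CPM in KO, and 2 and 5 of 13 were at 0 UMIs. The rule allowed no Cd3e, Cd3d or Cd79a UMI and left out 14 WT and 11 KO C1q cells that held one. Low levels of lymphocyte markers were therefore partly fixed by the choice of cells. Neutrophil markers summed to 364 CPM and 627 CPM, where S100a9 was at 57.3 CPM and 339 CPM with 96.6% of its KO UMIs in 5 cells. Of 4 neutrophil markers above the minimum S100a9 was over 2-fold higher in KO and 3 (Csf3r, G0s2 and Retnlg) were lower. Their median log2 ratio was -2.59 against -0.16 for all genes, of which 9.59% were past 2-fold. Markers of cDC2 and mature dendritic cells summed to 333 CPM and 691 CPM, and 2 of 4 above the minimum, Mgl2 and Cd209a, were higher in KO. Markers of cDC1 summed to 228 CPM and 254 CPM, epithelial and stromal markers to 179 CPM and 124 CPM, eosinophil markers to 20.5 CPM and 5.19 CPM, mast cell markers to 12.8 CPM and 9.35 CPM, and peritoneal macrophage markers to 104 CPM and 93.5 CPM. The part of these cells or of free RNA in the differences was not tested. Without cells holding other lineage UMIs (316 WT and 89 KO cells were kept), 9 of 16 interferon-stimulated genes were lower and 9 of 15 chemokines were higher.

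Within each library the cells varied along the C1q share. They were divided at 0.5% and 1%, which gave 152, 177 and 47 cells in WT and 51, 36 and 14 in KO. Of 2540 genes 48 were over 2-fold higher and 91 over 2-fold lower in the top than in the bottom range in both libraries. Ms4a7 went from 164 through 416 to 592 CPM in WT and from 122 through 302 to 978 CPM in KO. Dnase1l3, a DNase that degrades DNA of dead cells, went from 111 through 435 to 730 CPM in WT and from 26.8 through 53.4 to 1850 CPM in KO, where 90.7% of its UMIs over all members came from 5 cells. Acp5, Cd63, Stab1 and Ptgs1 were also among the 10 genes with the steepest increase.

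Monocyte genes were among those that went the other way. Plac8 went from 1021 through 414 to 185 CPM in WT and from 157 through 7.11 to 0 CPM in KO. Fn1 went from 128 through 47.2 to 20.2 CPM in WT and from 1254 through 217 to 8.15 CPM in KO. Slpi, Il6, S100a9, Clec4e and Ifi205 were among the 10 steepest as well. The decrease was not steady for all of them, since S100a9 went from 40.4 through 86.2 to 3.37 CPM in WT. Il6 went from 27.7 through 28.1 to 0 CPM there. In the top range S100a9 had 1 UMI in each library, and Il6 had 0 in WT and 2 in KO. These genes were ranked by the smaller of the ratios in the 2 libraries, so that a like direction in both was fixed by the choice. The KO top range held 14 cells, which limits its values.

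**Figure D5:**
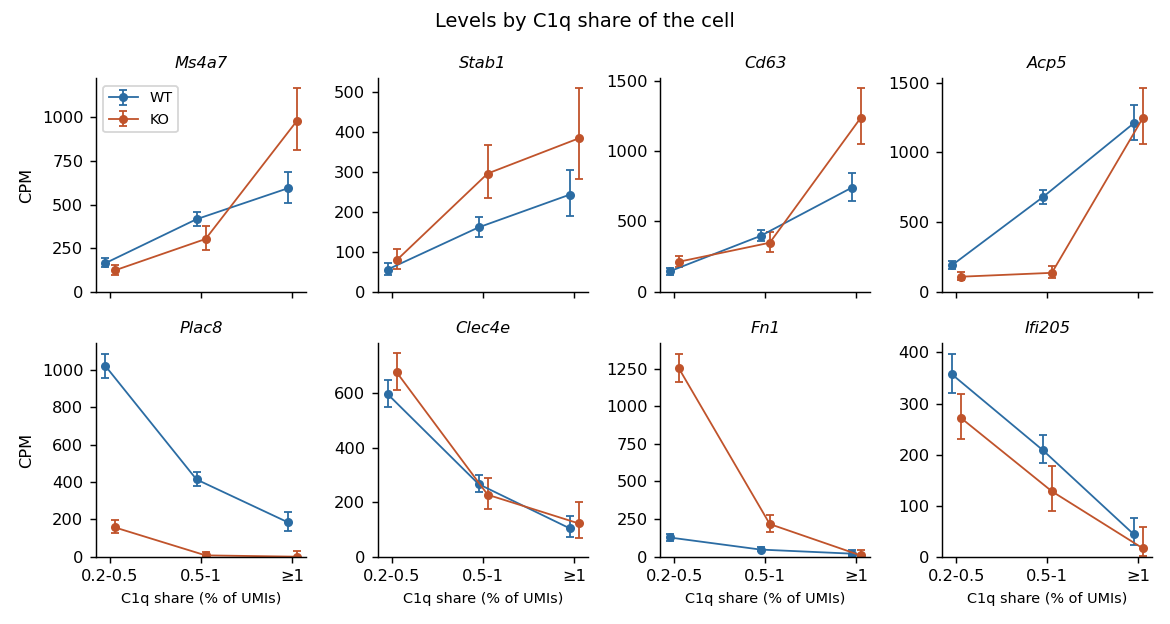
Levels (y axis, CPM, exact Poisson 95% intervals) of 8 genes in 3 ranges of the C1q share of a cell (x axis, % of UMIs), for WT (blue) and KO (orange). Ms4a7, Stab1, Cd63 and Acp5 increase and Plac8, Clec4e, Fn1 and Ifi205 decrease along the range in both libraries, with Fn1 at 1254 CPM in the lowest KO range against 128 CPM in WT.

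The nearest cells were C1q macrophages with high Ccl3 and Ccl4. Of 2954 genes 13 (0.44%) were over 2-fold higher and 6 (0.203%) over 2-fold lower in the low cells in both libraries. The 6 lower genes were Tnf, Vcam1, Hpgds, Cxcl10, Isg15 and Itpr2. Tnf was at 275 CPM in low and 1034 CPM in high cells of WT and at 543 CPM and 2052 CPM in KO, log2 ratios of -1.90 and -1.92. Cxcl10 was at 325 CPM and 3423 CPM in WT against 721 CPM and 1650 CPM in KO. Vcam1, an adhesion molecule, was at 178 CPM and 582 CPM in WT against 57.1 CPM and 153 CPM in KO.

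Fn1 led the genes that were higher in the low cells, at 76.1 CPM against 0 UMIs in the 26 high cells of WT and at 792 CPM against 186 CPM in KO. Mmp19, Tppp3, Retnla and S100a4 followed among the 10 highest. For Ifnb1 and Il10, singled out after their values were seen, the difference between libraries was not tested. Ifnb1, which encodes interferon beta, was found after thinning in 3.45% (0.717 to 9.75%) of low and 31.8% (22.3 to 42.6%) of high cells in KO, and in 1 low cell and 0 of 21 high cells in WT. Without thinning the KO shares were 5.94% and 49.0% at median depths of 8343 and 8913.5 UMIs, and 1 KO T cell held a UMI. Il10 was at 589 CPM in low and 342 CPM in high cells of WT, but at 568 CPM and 1205 CPM in KO. Over 6 interferon-stimulated genes above the minimum, the median log2 ratio of low to high cells was 0.44 in WT and -1.01 in KO. The high cells of WT held 146051 UMIs, which limits this comparison, and the 13 and 6 genes ranged from 2 to 689 and from 1 to 228 over the alternatives.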

How the data were processed

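The deposited values were raw UMI counts per gene and barcode, which the authors made with Cell Ranger 3.0.2 per the file headers, from 10x 3' (v3) libraries. The submitters' processing notes name mm10 and Seurat 4. Of 31053 features, 30934 have an identifier in GENCODE M21 (GRCm38), which gave coordinates, and RefSeq gave promoters. The study's cell filters were applied, while its Poisson model over cells and its DESC clustering were not used. The cell numbers that the study states for its clustering are not those of the filtered libraries.

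UMIs were summed per gene over the cells of a library and given as CPM with exact Poisson 95% intervals. Log2 ratios used a prior of 1 CPM and exact conditional binomial intervals, and shares used exact Clopper-Pearson intervals. Counting error alone enters the intervals and floors (3 UMIs for a count of 0). No test was run on 1 library per group, and past 2-fold is a description. The calculations were tested on simulated data. Python 3.11.15, numpy 2.4.6, scipy 1.17.1 and pandas 2.3.3 were used.

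Doublets were not removed. Scrublet (scanpy 1.11.5) called 1 WT and 9 KO cells (0.0385% and 0.358%), a rate at which it has not worked, and the top 3% of scores, which held 8 WT and 6 KO members, was left out as an alternative. The members and 31 gene lists were chosen with earlier results of these data known. Named were genes of these lists, the 15 highest and 15 lowest KO to WT ratios, the 20 highest and 10 lowest ratios against other cells, the 10 highest and 10 lowest against high Ccl3 and Ccl4 cells and against monocytes, and 10 each way along the C1q share. The gamma-interferon GTPases and the Ly6 family were added after values had been seen. Some genes are not reported here.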

Additional observations from a re-analysis of the deposited data

Results flagged for a closer look

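Only named genes with at least 50 UMIs in the high cells were searched, and the difference had to be past 2-fold in both groups. For 8 of them the KO to WT difference in C1q macrophages with low Ccl3 and Ccl4 had the opposite sign in those with high Ccl3 and Ccl4. Both counting intervals lay on their side of 0. With 1 library per genotype the difference was not tested, and the high cells of WT numbered 26. The differences between the log2 ratios were 6.85 for S100a9, 5.61 for Lyz1 and 2.20 for Cxcl10, which were higher in KO among the low and lower among the high cells. They were -5.26 for Mmp13, -4.24 for Ifit2, -3.98 for Ifit1, -2.82 for Id3 and -2.15 for Rsad2, which were lower in KO among the low and higher among the high cells. For S100a9 the log2 ratio was 2.54 in low and -4.31 in high cells, and 96.6% of its KO UMIs in low cells came from 5 cells. With a C1q share of at least 0.5% the ratio in low cells was -1.74 for S100a9 and -0.16 for Lyz1. The high cells of WT gave 3 UMIs of Id3, 4 each of Ifit1 and Ifit2 and 14 of Mmp13.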

How the results depend on the processing

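No paired analysis was possible because each genotype has 1 library. For the same reason no replicate could be left out. The log2 ratio of the shares stayed negative under all 10 alternatives, from -2.23 with Ccl3 and Ccl4 below 0.25% to -0.97 without this condition. The genes over 2-fold higher in KO (171) became 107 with a C1q share of at least 0.5%, 78 in thinned cells, 73 with at least 200 UMIs and 1392 with at least 1 UMI. Those lower in KO (401) became 226 in thinned cells, 202 with a prior of 10 CPM, 135 with at least 200 UMIs and 1556 with at least 1 UMI. The genes higher than in all other cells (252) became 116 in thinned cells and 149 with a prior of 10 CPM. Runx3 moved to -1.22 in thinned cells and was between -1.22 and -0.54 over 19 alternatives. The genes higher in low than in high Ccl3 and Ccl4 cells (13) became 25 with a C1q share of at least 0.1%, 8 and 65 with Ccl3 and Ccl4 below 0.25% and 1%, 7 when centred, 44 with per-cell means, 4 in thinned cells, 6 with a prior of 10 CPM, 2 with at least 200 UMIs and 689 with at least 1 UMI, and the lower ones (6) became 10 below 0.25%, 1 below 1%, 3 in thinned cells and 228 with at least 1 UMI.

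Of 105 named genes past 2-fold between the genotypes, 55 stayed past it under every alternative and 11 changed sign in at least 1. With a C1q share of at least 0.5% the log2 ratio was -0.16 for Lyz1, -1.74 for S100a9, -0.23 for Cxcl3, -0.11 for Lpl, -0.26 for Mmp12 and -1.10 for Serpinb2. S100a9 was -1.26 with Ccl3 and Ccl4 below 0.25%, Dcn was 0.17 without the top Scrublet scores, and Lpl was -0.33 without cells with a Retnla UMI. Without the condition on Ccl3 and Ccl4, Ifit1 was 1.09, Ifit2 0.92, Mmp13 1.82 and Rsad2 1.02. Fewer genes were counted in thinned cells (2237) and with at least 200 UMIs (2390) by construction, and otherwise the cause was not tested. The alternatives without cells with a Ly6c2 or Retnla UMI, without the Ccl3 and Ccl4 condition and without fibroblast UMIs among monocytes were chosen after seeing the data. The number of KO cells and their few deep cells limit every KO level.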
